A study of Mus with 2 samples.

Results

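The 9 genes described here carry the insulin signal and glucose uptake in fat: the insulin receptor gene *Insr*, the adaptor genes *Irs1* and *Irs2*, the phosphoinositide 3-kinase (PI3K) regulatory subunit gene *Pik3r1*, the kinase gene *Akt2*, the transcription factor gene *Foxo1*, the glucose transporter genes *Slc2a1* and *Slc2a4*, and the hexokinase gene *Hk2*. They were chosen by name from the known pathway, are 9 of the 32285 genes listed in the files, and were each listed once. They were measured by single-nucleus RNA sequencing (snRNA-seq) of interscapular brown adipose tissue (iBAT), the main heat-producing fat depot of the mouse. The *Wtap* flox/flox library came from C57BL/6 mice whose *Wtap* alleles carry a floxed exon and which have no Cre. The *Wtap*-BKO library came from C57BL/6 mice with the same floxed alleles and *Ucp1*-iCre, an IRES-iCre cassette placed behind the coding exons of *Ucp1*, so that Cre is made in cells that express *Ucp1*. All mice were 8 weeks old and fed normal chow, and nuclei came from frozen tissue of 4 mice pooled per library. With mice pooled in this way there was 1 library of each genotype, no replicate and no test.

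Insulin binding activates the receptor kinase, which phosphorylates the IRS adaptors. These recruit PI3K, whose regulatory subunit p85 is the product of *Pik3r1*, and the lipid product of PI3K leads to activation of AKT. In fat, AKT2 drives the transporter GLUT4 (*Slc2a4*) to the plasma membrane and keeps FOXO1 out of the nucleus, and hexokinase 2 traps the imported glucose as glucose 6-phosphate. In many tissues, active FOXO1 raises transcription of *Insr* and *Irs2*. Brown adipocytes take up much glucose when they produce heat or are exposed to insulin.

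The files give the genes by symbol and Ensembl identifier, and the submitters' processing notes name the mm10 build. The positions below are those of RefSeq genes on GRCm38.p6, the assembly known as mm10. *Insr* (ENSMUSG00000005534) spans positions 3150922 to 3279649 of chromosome 8, and *Irs2* (ENSMUSG00000038894) spans positions 10984681 to 11008929 of the same chromosome. *Irs1* (ENSMUSG00000055980) lies on chromosome 1 at 82233105 to 82291439, *Foxo1* (ENSMUSG00000044167) on chromosome 3 at 52268337 to 52350109, and *Slc2a1* (ENSMUSG00000028645) on chromosome 4 at 119108745 to 119137330. *Hk2* (ENSMUSG00000000628) lies on chromosome 6 at 82725025 to 82774454, *Akt2* (ENSMUSG00000004056) on chromosome 7 at 27591552 to 27640826, *Slc2a4* (ENSMUSG00000018566) on chromosome 11 at 69942286 to 69948216, and *Pik3r1* (ENSMUSG00000041417) on chromosome 13 at 101680761 to 101768217. UMIs were given per whole gene, so they cannot be assigned to exons, introns or UTRs.

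The libraries held 9494 and 8772 nuclei with 10770604 and 13945673 unique molecular identifiers (UMIs), in the order *Wtap* flox/flox and *Wtap*-BKO, which is kept below. The median nucleus had 954 and 1306 UMIs, and mitochondrially encoded genes took 7.60% and 11.7% of the UMIs. The files share 20 barcodes. *Wtap* itself had 554 and 734 UMIs, or 51.4 and 52.6 per 1000000 UMIs, but these were counted over the whole gene, of which only 1 exon is floxed, so they do not check the labels, on which each direction below rests. Nuclei fell into 14 clusters, and 6 classes were large enough to compare: adipocyte-like (6733 and 4910 nuclei), endothelial-like (1180 and 869), pericyte-like (444 and 208), fibroblast-like (271 and 485), macrophage-like (293 and 1129) and T cell-like (120 and 741). The 12 adipocyte markers together reached 12795 and 14248 per 1000000 UMIs in adipocyte-like nuclei, and the 7 brown adipocyte markers 3661 and 2479.

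In adipocyte-like nuclei, the adaptor genes and the PI3K subunit gene were higher in the library labelled *Wtap*-BKO, and *Foxo1* was lower. *Irs1* was higher by 1.64 on the log2 scale, *Irs2* by 1.36 and *Pik3r1* by 0.89, whereas *Foxo1* had a log2 ratio of -1.24. *Insr*, *Akt2*, *Slc2a4* and *Hk2* differed by less than 1.5-fold. Levels are given as counts per 1000000 UMIs of the class (CPM) and ratios as log2 of the *Wtap*-BKO over the *Wtap* flox/flox value, each with a 95% interval that covers counting error only and not the spread between mice or preparations. Of the 9 genes, 4 were higher by 1.5-fold or more and 1 was lower, beside 25.1% and 12.2% of the 14070 genes whose UMIs in the libraries summed to at least 20. The median ratio was 0.57 over the 9 genes and 0.07 over all 14070. One of the 4, *Slc2a1*, rests on only 13 and 47 UMIs. Its shares of nuclei were not separable from those of the nuclei used as background, which are not known to lack this gene. Without *Slc2a1*, 3 of 8 genes were higher, with a median of 0.41.

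*Insr* encodes the receptor. In adipocyte-like nuclei it had 3506 and 2766 UMIs, CPMs of 462 (447 to 478) and 332 (320 to 345). The level was thus lower in the library labelled *Wtap*-BKO, with a log2 ratio of -0.48 (-0.55 to -0.40). The Poisson intervals of the libraries do not overlap.

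*Irs1* and *Irs2* encode the adaptors that link the receptor to PI3K. *Irs1* had 951 and 3262 UMIs, CPMs of 125 (118 to 134) and 392 (378 to 405), and a log2 ratio of 1.64 (1.54 to 1.75). *Irs2* had 950 and 2681 UMIs, CPMs of 125 (117 to 133) and 322 (310 to 334), and a log2 ratio of 1.36 (1.25 to 1.47). Both adaptor genes were thus over 2-fold higher in the library labelled *Wtap*-BKO, while the receptor gene was lower there.

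*Pik3r1*, which encodes p85 alpha and its shorter forms, had 2217 and 4503 UMIs. Its CPM was 292 (280 to 305) and 541 (525 to 557), a log2 ratio of 0.89 (0.81 to 0.96). *Akt2*, the AKT gene most closely tied to glucose uptake in fat, had CPMs of 276 (264 to 288) and 325 (313 to 338), a log2 ratio of 0.24 (0.16 to 0.32). The *Akt2* difference exceeded counting error but stayed under 1.5-fold.

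*Foxo1* showed the opposite direction to the adaptor genes. It had 7022 and 3261 UMIs, although the class held fewer UMIs in the *Wtap* flox/flox library (7584246) than in the library labelled *Wtap*-BKO (8329194). The CPM was 926 (904 to 948) and 392 (378 to 405), a log2 ratio of -1.24 (-1.30 to -1.18).

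Of the transporters, *Slc2a4*, which encodes the insulin-regulated GLUT4, had 684 and 1117 UMIs. Its CPM was 90.2 (83.6 to 97.2) and 134 (126 to 142), a log2 ratio of 0.57 (0.43 to 0.71), just under 1.5-fold. It passed 1.5-fold, at 0.69, when only nuclei with at least 1000 UMIs were used or when mitochondrial genes were left out of the denominator. *Slc2a1*, which encodes the widely expressed GLUT1, had only 13 and 47 UMIs in the whole class. The CPM was 1.71 (0.913 to 2.93) and 5.64 (4.15 to 7.50), a log2 ratio of 1.72 (0.81 to 2.73), so its ratio is the least precise of the 9. *Hk2* had 4965 and 5879 UMIs, CPMs of 655 (637 to 673) and 706 (688 to 724), and a log2 ratio of 0.11 (0.05 to 0.16), the smallest difference of the 9 genes in this class.

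**Figure D1:**
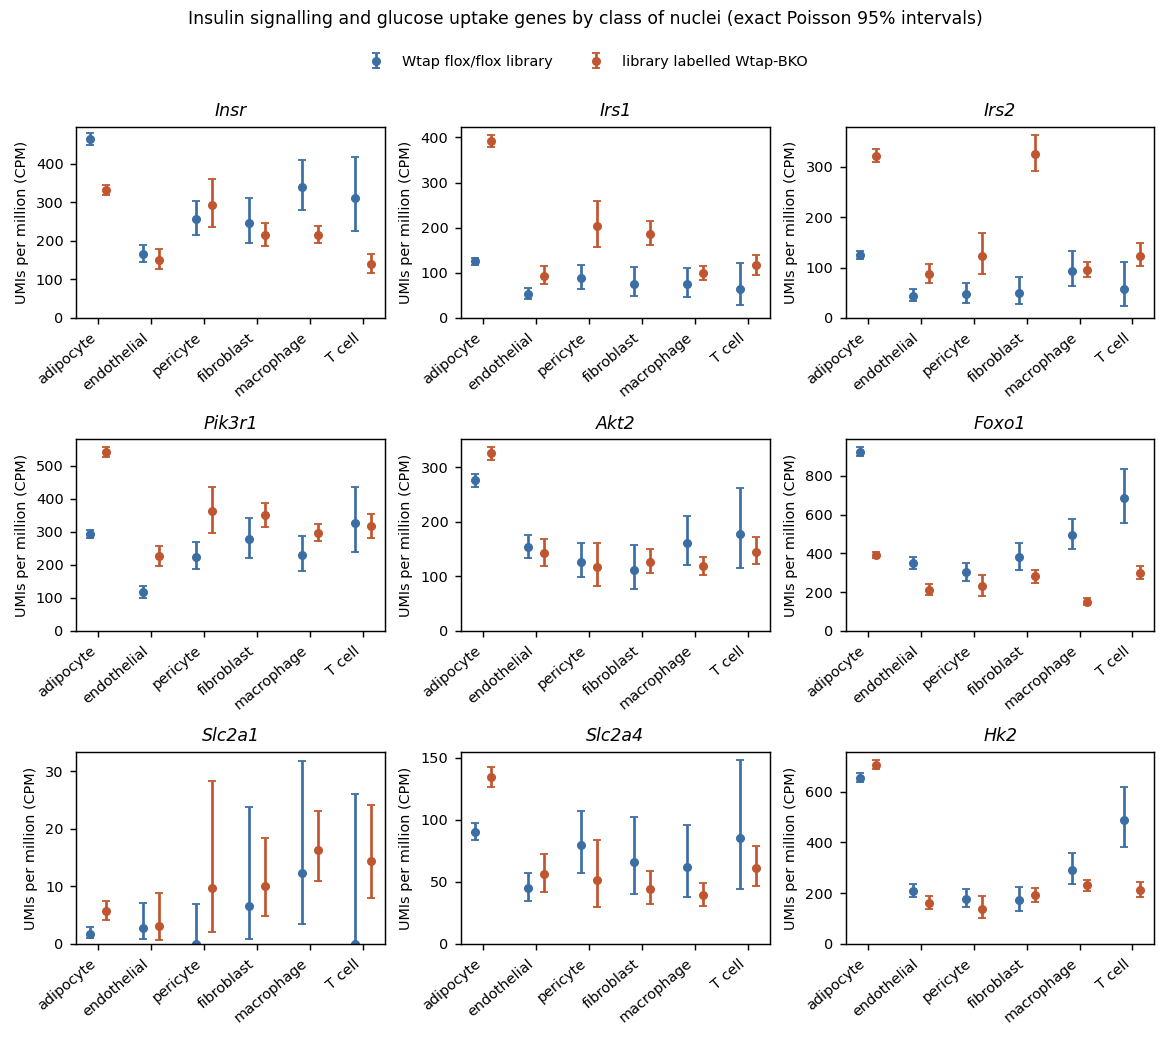
Levels of the 9 genes (y axis, CPM) in 6 classes of nuclei (x axis) of the *Wtap* flox/flox library (blue) and the library labelled *Wtap*-BKO (orange). Points are summed counts of 1 library each and bars are exact Poisson 95% intervals; in adipocyte-like nuclei, *Foxo1* sits at 926 and 392, *Irs1* at 125 and 392, and *Hk2* at 655 and 706.

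Adipocyte-like nuclei were made up of 5 clusters, and the libraries filled them unequally. The members and the other genes of their pathway had been left out of the features used for clustering. Cluster 0 (2683 and 1431 nuclei) was shallow and led by no marker list. Cluster 1 (1591 and 1672) was led by mitochondrially encoded genes. Cluster 2 (2107 and 962) was led by *Lncbate10*, *Erbb4* and *Ppargc1a*. Cluster 8 (217 and 538) was led by *Slc7a10*, *Cyp2e1*, *Trhde* and other genes of the white-like list, and cluster 11 (135 and 307) by interferon-responsive genes. Most adipocyte-like nuclei were thus in clusters 0 and 2 in the *Wtap* flox/flox library, and in clusters 1 and 0 among those labelled *Wtap*-BKO.

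The directions of *Irs1*, *Irs2*, *Foxo1* and *Insr* were the same within each of the 5 clusters. The log2 ratio of *Irs1* ranged from 1.24 in cluster 1 to 1.86 in cluster 11, and that of *Irs2* from 1.16 in cluster 11 to 1.46 in cluster 2. *Foxo1* ranged from -1.35 in clusters 1 and 11 to -0.85 in cluster 8. *Insr* ranged from -0.67 in cluster 1 to -0.30 in cluster 11, where the interval (-0.70 to 0.11) includes 0. *Pik3r1* differed more between clusters: its log2 ratio was 1.07 (0.92 to 1.22) in cluster 0, 0.37 (0.16 to 0.58) in cluster 8 and -0.16 (-0.61 to 0.30) in cluster 11. *Akt2* lay between -0.03 and 0.37, and *Slc2a4* between -0.18 in cluster 11 and 0.80 in cluster 2. *Hk2* ranged from 0.02 (-0.09 to 0.14) in cluster 1 to 0.50 (0.19 to 0.82) in cluster 11.

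**Figure D2:**
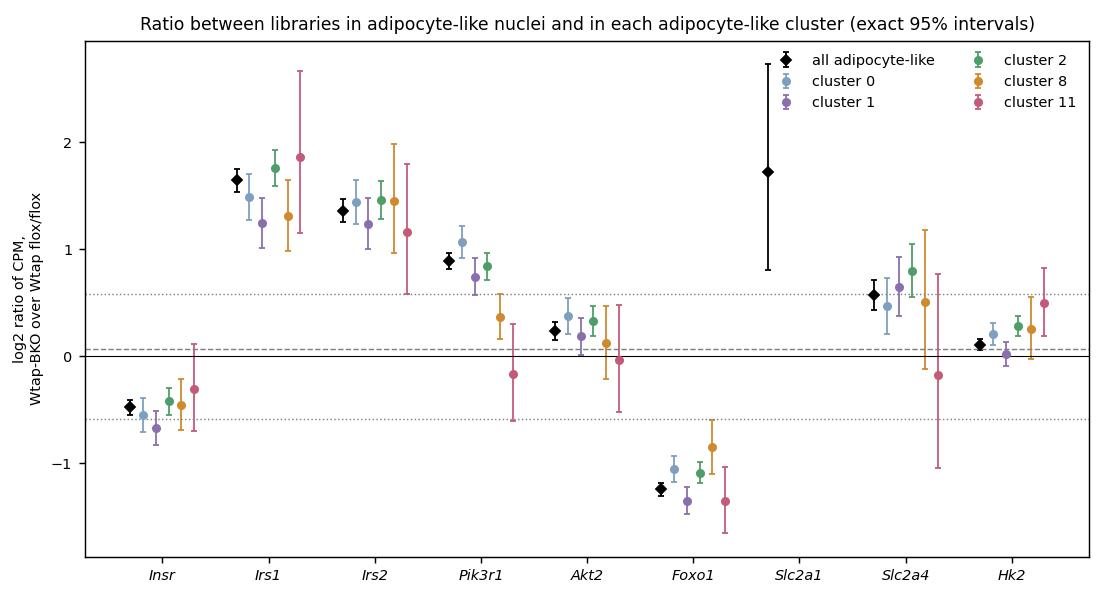
Log2 ratio of CPM between libraries (y axis, values above 0 are higher in the library labelled *Wtap*-BKO), for each gene (x axis) in all adipocyte-like nuclei (black diamonds) and in each of the 5 adipocyte-like clusters (coloured points), with exact 95% intervals that cover counting error; dotted lines mark 1.5-fold and the dashed line the median of all genes at 0.07. *Irs1* and *Irs2* lie above the upper dotted line and *Foxo1* below the lower one in every cluster, and cluster values with under 20 UMIs (all those of *Slc2a1*) are not drawn.

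Cluster 8, the one led by white-like genes, stood apart from the other adipocyte-like clusters in its levels. *Irs1* was at 292 (233 to 360) and 722 (674 to 772) CPM in cluster 8. In the other 4 clusters, *Irs1* ranged from 103 to 127 CPM in the *Wtap* flox/flox library and from 258 to 431 CPM in the library labelled *Wtap*-BKO. *Pik3r1* was at 760 (663 to 866) and 982 (927 to 1040) CPM, above a range of 231 to 333 and of 298 to 581 CPM in the other clusters. *Insr* was also highest in cluster 8, at 665 (575 to 764) and 485 (446 to 526) CPM.

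*Foxo1* and *Hk2* went the other way. *Foxo1* in cluster 8 was at 644 (556 to 743) CPM in the *Wtap* flox/flox library, below the other 4 clusters (756 to 1075). This interval overlaps that of cluster 1 (716 to 799). In the library labelled *Wtap*-BKO, *Foxo1* in cluster 8 was at 358 (324 to 393) CPM, within the range of the others (297 to 505). *Hk2* in cluster 8 was at 417 (347 to 498) and 499 (460 to 540) CPM, the lowest of the 5 clusters in both libraries. *Irs2* did not stand apart in cluster 8, at 125 (88.3 to 173) and 343 (311 to 378) CPM. *Slc2a4* in this cluster was at 84.8 (54.9 to 125) and 120.3 (101 to 142) CPM, inside the range of the other clusters, 78.0 to 109 and 80.4 to 151 CPM.

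*Foxo1* was highest in cluster 2 in both libraries, at 1075 and 505 CPM, the cluster led by *Lncbate10*, *Erbb4* and *Ppargc1a*. In the *Wtap* flox/flox library its interval (1039 to 1112) overlaps that of cluster 11 at 928 (787 to 1087) CPM. *Hk2* was highest in cluster 0 of the *Wtap* flox/flox library, at 728 (693 to 764) CPM, an interval that overlaps those of clusters 2 (638 to 695) and 11 (504 to 751). In the library labelled *Wtap*-BKO it was highest in cluster 11, at 876 (802 to 955) CPM, an interval that overlaps that of cluster 0 at 843 (800 to 888) CPM. Leaving out clusters 8 and 11, an alternative chosen after the data were seen, gave log2 ratios of 1.48 for *Irs1*, -0.59 for *Insr* and 0.65 for *Slc2a4*. *Slc2a4* thereby also passed 1.5-fold higher and *Insr* 1.5-fold lower. The share of all genes past 1.5-fold is not given for this alternative.

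The libraries differed in their mitochondrial share: 33.0% and 74.8% of all nuclei had over 5% mitochondrial UMIs. Adipocyte-like nuclei were therefore split into nuclei with up to 5% (5186 and 1058 nuclei), over 5 to 10% (959 and 1443) and over 10% (588 and 2409) mitochondrial UMIs, and CPM was taken over non-mitochondrial UMIs. All 9 genes kept the direction of the whole class in each bin. *Irs1* was at 134 and 564 CPM in the lowest bin, 131 and 469 in the middle bin and 99.7 and 364 in the highest bin. *Foxo1* was at 1003 and 490, 862 and 499, and 798 and 384 CPM. *Insr* differed least in the middle bin, where the log2 ratio was -0.13 (-0.30 to 0.05). *Hk2* had log2 ratios of 0.21 (0.12 to 0.30), 0.27 (0.14 to 0.40) and 0.45 (0.28 to 0.62), against 0.22 over all adipocyte-like nuclei on the same scale.

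**Figure D3:**
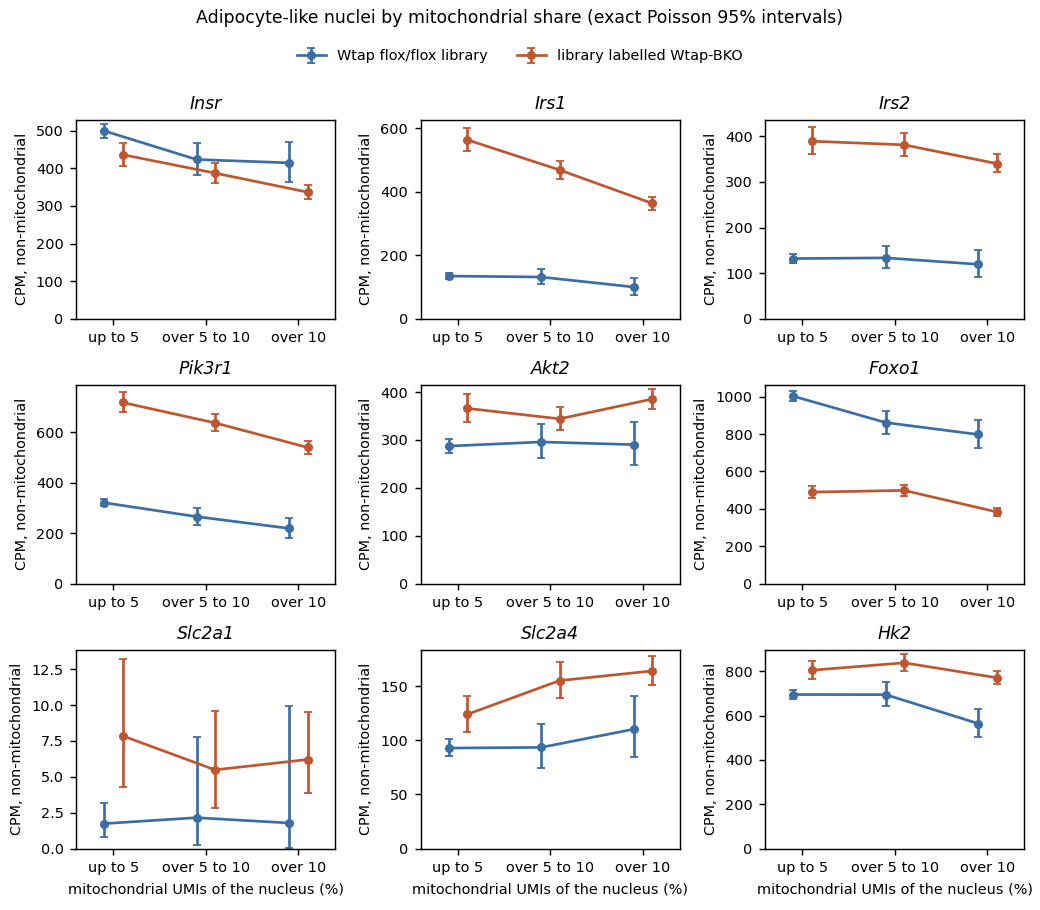
Levels of the 9 genes in adipocyte-like nuclei (y axis, CPM over non-mitochondrial UMIs) against the mitochondrial share of the nucleus (x axis, percent, 3 bins), with exact Poisson 95% intervals and 1 library per colour. *Irs1*, *Irs2* and *Pik3r1* of the library labelled *Wtap*-BKO (orange) lie above the *Wtap* flox/flox library (blue) in every bin and *Foxo1* lies below it, at 490 against 1003 in nuclei with up to 5%.

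The share of nuclei with a UMI had the same direction between libraries as CPM once each nucleus had been thinned to 1000 UMIs. The intervals of the libraries overlap for *Akt2*, *Slc2a1* and *Hk2*. Thinning left 3286 and 3833 adipocyte-like nuclei and set aside 3447 and 1077 shallower ones. A UMI of *Foxo1* was found in 56.5% (54.7 to 58.2) and 28.2% (26.8 to 29.7) of these nuclei, against 55.5% and 39.2% before thinning. *Irs1* was found in 11.9% (10.8 to 13.1) and 26.8% (25.4 to 28.2), and *Irs2* in 11.4% (10.3 to 12.5) and 26.4% (25.0 to 27.8), while before thinning the shares were 12.1% and 35.4% for *Irs1* and 12.4% and 36.0% for *Irs2*. *Pik3r1* was found in 23.4% and 35.4%, *Insr* in 35.4% and 27.0%, and *Hk2* in 45.3% and 46.9%. *Akt2* was found in 23.9% and 26.7%. Before thinning, these 4 genes were found in 24.1% and 46.0%, 37.0% and 38.3%, 47.1% and 57.5%, and 25.3% and 38.8%. The share of *Insr* was thus lower in the library labelled *Wtap*-BKO only after thinning, which also set aside the shallower nuclei. Intervals on shares are exact binomial 95% intervals.

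Macrophage- and T cell-like nuclei gave the background for these shares. Their median depth was 908 and 1156 UMIs before thinning, against 989 and 1480 for adipocyte-like nuclei. *Slc2a4*, a gene of fat and muscle, was found in 8.55% (7.62 to 9.56) and 13.3% (12.2 to 14.4) of adipocyte-like nuclei, and in 7.07% (3.82 to 11.8) and 4.10% (3.02 to 5.44) of macrophage- and T cell-like nuclei. *Slc2a1* was found in 0.213% and 0.60% of adipocyte-like nuclei, beside 0.543% and 1.25% in macrophage- and T cell-like nuclei. The intervals overlap in both libraries. The background nuclei are not known to lack *Slc2a1*, so they cannot decide whether its share in adipocyte-like nuclei is background. Before thinning, *Slc2a4* was found in 9.54% and 19.3% and *Slc2a1* in 0.193% and 0.937% of adipocyte-like nuclei. *Foxo1* was found in 36.4% and 16.6%, *Irs1* in 7.07% and 7.40%, *Irs2* in 9.78% and 8.74%, and *Hk2* in 35.3% and 15.3% of the background nuclei. *Insr* was found in 31.5% and 16.3%, *Pik3r1* in 21.2% and 24.0%, and *Akt2* in 15.2% and 10.8% of them. In the *Wtap* flox/flox library, where 184 background nuclei remained after thinning, only *Akt2*, *Foxo1* and *Hk2* had a share in adipocyte-like nuclei whose interval lay above that of the background. The other 6 genes were not separable from it at this depth. In the library labelled *Wtap*-BKO, where 1121 background nuclei remained, 8 of the 9 were above the background, the exception being *Slc2a1*. The background intervals are wider in the *Wtap* flox/flox library, which has fewer such nuclei, so the counts of 3 and 8 are not compared. The share of all genes above the background is not given. Of the 9 genes, only *Slc2a4* is known as a gene of few tissues, so the background nuclei are not known to lack the other 8.

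Marker RNA of other classes was also unequal in adipocyte-like nuclei. The 10 macrophage markers together had 77.3 and 161 CPM, the 10 T cell markers 17.7 and 65.3, and the 10 fibroblast markers 88.1 and 193, and all 10 markers of each of these lists were higher in the library labelled *Wtap*-BKO. The 8 pericyte markers had 178 and 271 CPM, although only 2 of the 8 were higher in that library, and the 10 endothelial markers 132 and 83.1. In their own classes the same lists summed to between 3709 and 7700 CPM. The 7 white-like adipocyte markers had 301 and 988 CPM, and the 9 interferon-responsive markers 250 and 739. The part of these markers in the ratios of the 9 genes was not tested, beyond the values without clusters 8 and 11.

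Across classes, adipocyte-like nuclei had the highest level of *Insr*, *Irs1*, *Akt2*, *Foxo1*, *Slc2a4* and *Hk2* in both libraries. The order below them was mostly not resolved, since intervals of neighbours overlap in 2 to 5 of the 5 neighbouring pairs of each gene. The adipocyte-like level was separated from the next class for *Akt2*, *Foxo1* and *Hk2* in both libraries. It was also separated for *Insr* in the *Wtap* flox/flox library only. In the library labelled *Wtap*-BKO only, it was separated for *Irs1*, *Pik3r1* and *Slc2a4*. Each of these separations in a single library was lost under an alternative. In the *Wtap* flox/flox library the separation of *Akt2*, *Foxo1* and *Hk2* was lost under some alternatives: with at least 1000 UMIs per nucleus, the log2 ratio of T cell-like over adipocyte-like nuclei was -0.06 (-0.45 to 0.31) for *Hk2*, -0.31 (-0.66 to 0.01) for *Foxo1* and -0.59 (-1.35 to 0.07) for *Akt2*. In the library labelled *Wtap*-BKO it held under the alternatives run for *Akt2* and *Hk2*, and was lost for *Foxo1* against pericyte-like nuclei with a marker gate, at -0.09 (-0.28 to 0.11). *Hk2* had the widest separation in the library labelled *Wtap*-BKO, with a level 3.07 times that of the next class, macrophage-like nuclei. *Irs2* of the library labelled *Wtap*-BKO was as high in fibroblast-like nuclei (325 CPM) as in adipocyte-like nuclei (322 CPM). *Pik3r1* of the *Wtap* flox/flox library was at 325 (238 to 434) CPM in T cell-like nuclei, an interval that includes the adipocyte-like level of 292 CPM. With classes set by a marker gate, *Irs1* and *Pik3r1* of the library labelled *Wtap*-BKO were higher in pericyte-like than in adipocyte-like nuclei, by log2 ratios of 0.20 (0.01 to 0.38) and 0.14 (-0.02 to 0.29), *Insr* was higher there too, by 0.37, and *Hk2* of the *Wtap* flox/flox library had a log2 ratio of T cell-like over adipocyte-like nuclei of 0.10 (-0.37 to 0.53). *Slc2a1* was at 12.4 and 16.2 CPM in macrophage-like nuclei, from 4 and 30 UMIs, above its adipocyte-like level by log2 ratios of 2.85 (0.78 to 4.55) and 1.52 (0.81 to 2.21). Neighbours in its order were not resolved, since the intervals of all 5 neighbouring pairs overlap in both libraries. *Slc2a4* of the *Wtap* flox/flox library was above its adipocyte-like level in T cell-like, fibroblast-like or pericyte-like nuclei under some alternatives, each with an interval that includes 0.

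Adipocyte RNA was found in all classes, so the levels outside adipocyte-like nuclei are given beside it. The 12 adipocyte markers together reached 54.9% and 42.3% of their adipocyte-like level in endothelial-like nuclei, 43.9% and 31.1% in pericyte-like, 37.2% and 25.2% in fibroblast-like, 51.6% and 31.4% in macrophage-like, and 64.6% and 37.3% in T cell-like nuclei. None of the 12 was at 0 in any of these classes, and single markers ranged from 21.0% (*Adrb3*, fibroblast-like, *Wtap*-BKO) to 125% (*Adipoq*, endothelial-like, *Wtap* flox/flox). How much of a member's level in these classes came from such RNA was not tested.

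**Figure D4:**
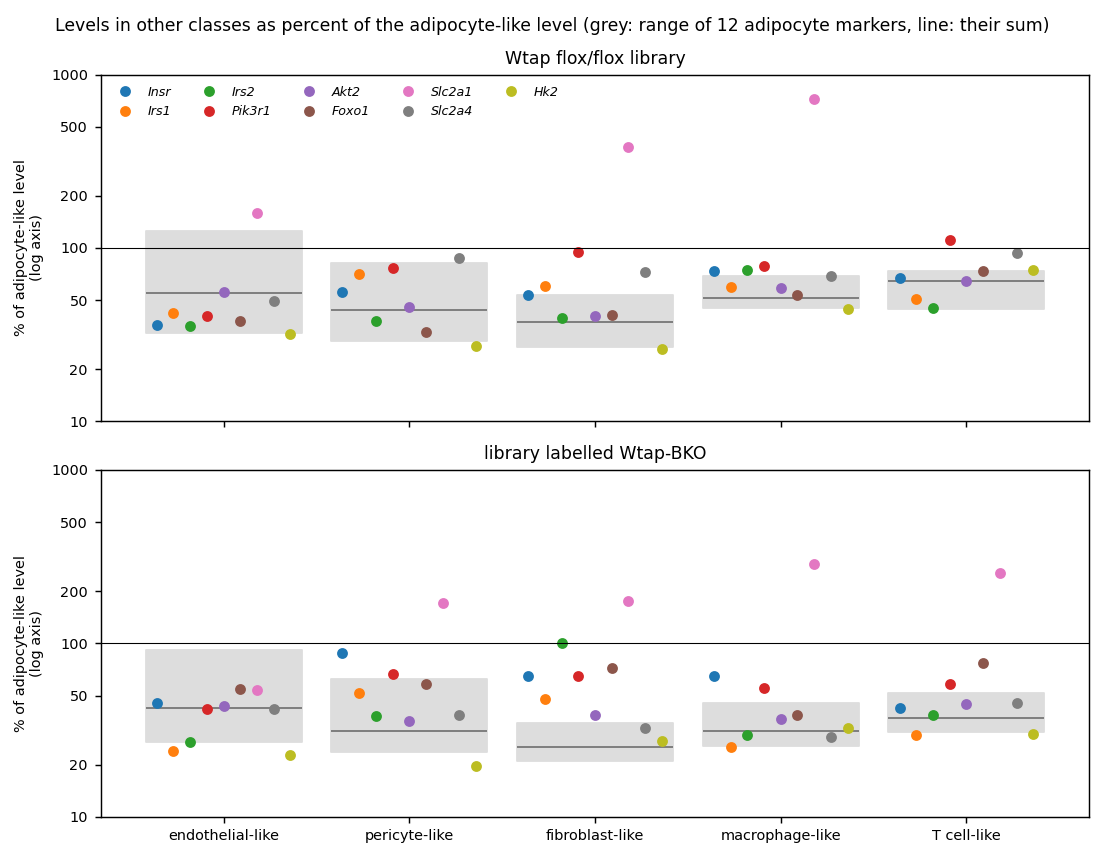
Level of each gene in 5 classes (x axis) as a percentage of its level in adipocyte-like nuclei of the same library (y axis, log axis), with the *Wtap* flox/flox library above and the library labelled *Wtap*-BKO below; grey boxes span the 12 adipocyte markers and the grey line is their sum. *Slc2a1* lies above the grey boxes in macrophage-like nuclei at 722% and 287%, 7 of the 9 genes lie above them in fibroblast-like nuclei of the library labelled *Wtap*-BKO, and *Slc2a1* is not drawn where it had 0 UMIs (pericyte- and T cell-like nuclei, *Wtap* flox/flox). The share of all genes above the boxes is not given.

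In endothelial-like nuclei, *Irs1*, *Irs2* and *Pik3r1* were higher in the library labelled *Wtap*-BKO and *Foxo1* was lower. These were 3 and 1 of the 8 genes with at least 20 UMIs, beside 32.7% and 5.80% of all 9827 genes at that depth. *Irs1* was at 52.7 and 93.4 CPM, a log2 ratio of 0.82 (0.37 to 1.28), and *Irs2* at 44.5 and 87.3 CPM, 0.97 (0.49 to 1.46). *Pik3r1* was at 118 and 226 CPM, 0.94 (0.65 to 1.24). With only nuclei of up to 5% mitochondrial UMIs, *Irs1* and *Irs2* turned to -0.10 (-0.99 to 0.76) and -0.58 (-1.65 to 0.42), from 31 and 20 and from 28 and 13 UMIs, and *Pik3r1* fell to 0.42 (-0.10 to 0.94), so that all 3 higher calls ended. They also ended under median-of-ratios scaling, which moved every ratio of this class by -0.49, to 0.34, 0.48 and 0.45, and which put *Insr*, *Akt2* and *Hk2* past 1.5-fold lower beside *Foxo1*. With the highest doublet scores removed, *Irs1* (0.52, -0.04 to 1.08) and *Foxo1* (-0.52) fell under 1.5-fold, as did *Foxo1* with a marker gate (-0.47). With up to 5% mitochondrial UMIs, *Akt2* was at -1.18 (-1.89 to -0.52), *Hk2* at -1.21 (-1.74 to -0.70) and *Slc2a4* at -1.13 (-2.75 to 0.25). These were then also past 1.5-fold lower, beside *Foxo1*. The class held 2 clusters. Cluster 9 (504 and 207 nuclei) was led by *Gm10800* and *Gm10801* with a haemoglobin gene and endothelial genes among the leading 10, had a median of 12.2% mitochondrial UMIs, and carried adipocyte markers at 66.4% and 64.1% of their adipocyte-like level.

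Without cluster 9, an alternative chosen after the data were seen, the endothelial-like values of several genes changed. In cluster 4 alone (676 and 662 nuclei), *Foxo1* was at 230.2 (197 to 267) and 229 (192 to 271) CPM, a log2 ratio of -0.01 (-0.35 to 0.33), against -0.72 (-0.96 to -0.49) for the class and -1.33 (-1.71 to -0.97) for cluster 9. *Insr* went from -0.14 (-0.44 to 0.16) for the class to 0.43 (-0.06 to 0.92). *Akt2* went from -0.11 to -0.63 (-1.16 to -0.12) and became the only gene lower by 1.5-fold, and *Slc2a4* went from 0.33 to -0.29 (-1.23 to 0.62). Over all alternatives for this class, *Akt2* ranged from -1.18 to 0.24 and *Slc2a4* from -1.13 to 0.51. *Irs1*, *Irs2* and *Pik3r1* stayed higher in cluster 4, at 0.87 (0.16 to 1.59), 1.35 (0.41 to 2.35) and 1.14 (0.70 to 1.60). *Hk2* was at 12.5% and 9.92% of its adipocyte-like level in cluster 4, where the 12 adipocyte markers ranged from 10.9% to 134% and from 17.2% to 58.8%.

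In pericyte-like nuclei, the same 3 genes were higher: *Irs1* at 88.7 and 203 CPM, a log2 ratio of 1.20 (0.63 to 1.77), *Irs2* at 47.2 and 123 CPM, 1.38 (0.61 to 2.17), and *Pik3r1* at 225 and 361 CPM, 0.69 (0.30 to 1.07). *Slc2a4* was lower by 1.5-fold, at 79.3 and 51.6 CPM from 42 and 16 UMIs, with an interval of -1.55 to 0.24 that includes 0. With classes set by a marker gate it was at 0.17, with the top 8 PCs at -0.28 and with up to 5% mitochondrial UMIs at -0.36. *Hk2* went from -0.36 to 0.83 (0.49 to 1.18) with a marker gate. It was at -1.05 (-2.04 to -0.17) with up to 5% mitochondrial UMIs and at -0.64 (-1.58 to 0.20) with the highest doublet scores removed. In the reported setting, 3 and 1 of 8 genes were higher and lower, beside 21.2% and 12.8% of 6598. *Pik3r1* fell under 1.5-fold, to between 0.50 and 0.52, in 3 of 8 alternatives: median-of-ratios scaling, resolution 1.0 and nuclei of up to 5% mitochondrial UMIs. *Foxo1* was at 302 and 229 CPM, -0.40 (-0.82 to 0.01). Its ratio was 0.05 (-0.47 to 0.55) with the highest doublet scores removed and -0.59 (-1.01 to -0.18) under median-of-ratios scaling. *Insr* was at 257 (215 to 304) and 294 (236 to 360) CPM, which in the library labelled *Wtap*-BKO was 88.4% of the adipocyte-like level, above all 12 adipocyte markers (23.5% to 62.1%). *Slc2a1* had 0 and 3 UMIs in this class, and no ratio is given.

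In fibroblast-like nuclei, *Irs2* had 15 UMIs in 1 library, *Wtap* flox/flox, and 327 in that labelled *Wtap*-BKO. The CPM was 49.4 (27.7 to 81.5) and 325 (291 to 363), a log2 ratio of 2.72 (1.98 to 3.57), the largest of any gene of the 9 in any class with at least 20 UMIs. *Irs2* thereby went from 39.5% to 101% of the adipocyte-like level, while the 12 adipocyte markers summed to 37.2% and 25.2%. *Irs1* was also higher, at 75.8 and 187 CPM, 1.30 (0.68 to 2.0). *Slc2a4* was lower at 65.9 and 43.8 CPM, -0.59, with an interval of -1.38 to 0.25, and was under 1.5-fold in 5 of 8 alternatives. These were 2 and 1 of 8 genes, beside 23.3% and 13.7% of 8365. *Foxo1* was at 379 and 281 CPM, -0.43 (-0.75 to -0.11). In the library labelled *Wtap*-BKO, 7 of the 9 genes had a higher percentage of their adipocyte-like level in these nuclei than any of the 12 adipocyte markers, the exceptions being *Slc2a4* and *Hk2*. Those markers were chosen for adipocytes and reached at most 34.9% here. The share of all genes above them is not given, so the count is not read as a trait of the 9 genes. After thinning, a UMI of *Irs2* was found in 7.69% (3.58 to 14.1) of 117 and 25.8% (21.5 to 30.5) of 384 fibroblast-like nuclei, against 5.54% and 33.4% before thinning.

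In macrophage-like nuclei, no gene of the 9 was higher by 1.5-fold and 3 were lower, beside 25.4% and 16.8% of 10058 genes. *Foxo1* was at 495 (422 to 578) and 150.2 (133 to 169) CPM, a log2 ratio of -1.72 (-2.01 to -1.43). *Insr* was at 340.5 and 216 CPM, -0.66 (-0.97 to -0.34), and *Slc2a4* at 61.9 and 38.9 CPM, -0.67 (-1.40 to 0.12). The summed adipocyte markers were at 6597 and 4469 CPM in these nuclei. *Irs2* was at 92.9 and 95.1 CPM, 0.03 (-0.53 to 0.64), an interval whose upper bound lies below the ratios of this gene in adipocyte- and fibroblast-like nuclei. With classes set by a marker gate, however, *Irs2* was at 1.07 (0.03 to 2.33) from 8 and 87 UMIs and *Irs1* at 1.95 (0.87 to 3.29) from 7 and 140 UMIs, both past 1.5-fold, while *Insr* (-0.46) and *Slc2a4* (-0.05) no longer were. *Foxo1* stayed lower under all 8 alternatives, between -2.26 and -1.31, while the count of lower genes ranged from 1 to 5. The share of all genes is given only for the reported setting.

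In T cell-like nuclei, the *Wtap* flox/flox library held only 120 nuclei, with 141342 UMIs. *Insr* was at 311 (226 to 418) and 140.05 (118 to 166) CPM, a log2 ratio of -1.15 (-1.65 to -0.63). *Foxo1*, which in T cells is known for its part in quiescence and homing, was at 686 (557 to 837) and 299.7 (266 to 336) CPM, -1.20 (-1.53 to -0.85). *Hk2* was at 488 (380 to 618) and 212 (184 to 243) CPM, -1.20 (-1.60 to -0.79). The summed adipocyte markers were at 8264 and 5313 CPM in the same nuclei. *Irs1* and *Irs2* were higher, at 0.87 (-0.11 to 2.04) from 9 and 113 UMIs and 1.13 (0.10 to 2.37) from 8 and 120 UMIs. These were 2 and 3 of 8 genes, beside 30.9% and 19.0% of 8262. With the 721 and 616 nuclei of the highest doublet scores removed from the libraries, *Irs1* and *Irs2* fell to 0.51 (-0.55 to 1.79) and 0.56 (-0.58 to 1.94), so that both higher calls ended. With at least 1000 UMIs per nucleus, *Irs1* was at 0.58, just under 1.5-fold. *Slc2a1* had 0 and 14 UMIs, and the count of 0 allows up to 21.2 CPM, above the 14.4 CPM of the other library, so no difference was detectable.

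The rest of the pathway was followed in adipocyte-like nuclei through 105 other genes in 8 lists, of which 100 had at least 20 UMIs. Of these, 24 were higher and 8 lower by 1.5-fold or more, shares of 24.0% and 8.00% that lie near the 25.1% and 12.2% of all genes, and their median log2 ratio was 0.07. PI3K subunits and lipid phosphatases had 6 of 11 genes higher and 1 lower, with a median of 0.65. Of these 6, *Pik3cd*, *Pik3cg* and *Inpp5d* are best known from leukocytes and had 37 and 87, 4 and 20, and 44 and 76 UMIs, *Pik3cd* and *Inpp5d* being named here after their values were seen. Macrophage and T cell markers were higher by 1.06 and 1.89 on the log2 scale in the same nuclei, and their part in the count and median of this list was not tested. The Akt and mTOR arm had 1 of 19 higher and 1 lower, with a median of -0.24. GLUT4 vesicle trafficking had 2 of 19 higher and 1 lower, with a median of -0.14.

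Among PI3K genes, the catalytic subunit gene *Pik3cb* was at 13.2 and 34.1 CPM, a log2 ratio of 1.37 (1.04 to 1.71). The phosphatase gene *Inpp4b* was at 6.86 and 15.6 CPM, 1.19 (0.71 to 1.68), and *Pik3cg*, a catalytic subunit gene best known from leukocytes, had 4 and 20 UMIs, 2.19 (0.61 to 4.20). *Pik3ca*, which encodes the catalytic subunit p110 alpha, was at 83.1 and 68.6 CPM, -0.28 (-0.44 to -0.11). *Pik3c2a* was at -0.32 (-0.49 to -0.16), and *Inppl1*, which encodes the phosphatase SHIP2, at -0.59 (-0.70 to -0.47).

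Among adaptors and brakes of the receptor, 3 of 11 genes were higher and 1 lower, with a median of 0.15. *Grb10*, an inhibitor of the receptor kinase, was at 9.89 and 23.5 CPM, 1.25 (0.86 to 1.65), and *Socs3*, a feedback inhibitor of cytokine and insulin signalling, had 10 and 43 UMIs, 1.97 (0.95 to 3.13). *Shc1* was at 0.62 (0.35 to 0.89). *Cblb*, a ubiquitin ligase gene, was at 360.4 and 228 CPM, -0.66 (-0.74 to -0.57), *Sh2b1* at -0.38 (-0.59 to -0.18) and *Grb14* at -0.11 (-0.29 to 0.07).

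In the Akt and mTOR arm, the AKT phosphatase gene *Phlpp1* was at 348 and 178 CPM, a log2 ratio of -0.97 (-1.06 to -0.88). *Rptor* and *Rictor*, which encode the defining subunits of the mTOR complexes, were at -0.57 (-0.69 to -0.45) and -0.39 (-0.53 to -0.26). *Akt1s1* was at 0.55 (0.30 to 0.81) and the mTOR inhibitor gene *Deptor* at 0.41 (0.33 to 0.49).

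FoxO factors and FoxO-responsive genes had 1 of 7 higher, none lower and a median of -0.02, beside the *Foxo1* ratio of -1.24. *Sesn3* was at 11.6 and 23.9 CPM, 1.04 (0.67 to 1.42), and *Pdk4*, which encodes a kinase that restrains glucose oxidation, at 810 and 1084 CPM, 0.42 (0.37 to 0.47). *Foxo4* was at 0.04 (-0.44 to 0.52), *Sesn1* at -0.07 (-0.25 to 0.10), *Ccng2* at -0.43 (-0.69 to -0.16) and *Klf15* at -0.48 (-0.72 to -0.25).

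In GLUT4 vesicle trafficking, *Tbc1d4*, the AKT substrate also called AS160, was at 578 and 341 CPM, a log2 ratio of -0.76 (-0.83 to -0.69). The Ral GTPase-activating subunit genes *Ralgapa2* and *Ralgapb* were at -0.46 (-0.51 to -0.41) and -0.43 (-0.60 to -0.26). The vesicle and motor genes *Vamp8*, *Myo1c* and *Vamp2* were at 1.03 (0.73 to 1.34), 0.66 (0.49 to 0.84) and 0.44 (0.06 to 0.83). Other glucose transporters had 2 of 7 genes higher and none lower, with a median of 0.28. *Slc2a5*, the fructose transporter gene, had 18 and 119 UMIs, 2.59 (1.87 to 3.39), and *Slc2a13* 27 and 76 UMIs, 1.36 (0.71 to 2.05). *Slc2a8* was at 0.41, *Slc2a3* at 0.25, *Slc2a9* at 0.03 and *Txnip*, which encodes a protein that restrains glucose uptake, at -0.15 (-0.20 to -0.11).

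Glucose trapping, glycolysis and glycogen had 6 of 21 genes higher and 3 lower, with a median of 0.11. The hexokinase gene *Hk3*, best known from myeloid cells, had 5 and 41 UMIs, 2.90 (1.56 to 4.6). *Gapdh* was at 27.7 and 59.8 CPM, 1.11 (0.88 to 1.35), and *Ldha* at 97.6 and 189 CPM, 0.96 (0.83 to 1.08). *Gys2* and *Gbe1*, both of glycogen synthesis, were at 29.9 and 10.4 CPM, -1.52 (-1.89 to -1.16), and at 499 and 284 CPM, -0.81 (-0.89 to -0.74), and *Pfkp* was at -0.68 (-0.88 to -0.48). Of 5 insulin effectors on lipid, *Srebf1* and *Acly*, which act in fatty acid synthesis, were at 1.48 (1.35 to 1.60) and 0.63 (0.53 to 0.73), and *Pck1*, a gene of glyceroneogenesis, at 710.3 and 1877 CPM, 1.40 (1.36 to 1.45). *Lpin1* was at -0.90 (-0.97 to -0.83) and *Pde3b*, which encodes the phosphodiesterase through which insulin restrains lipolysis, at 1447 and 1036 CPM, -0.48 (-0.52 to -0.44).

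**Figure D5:**
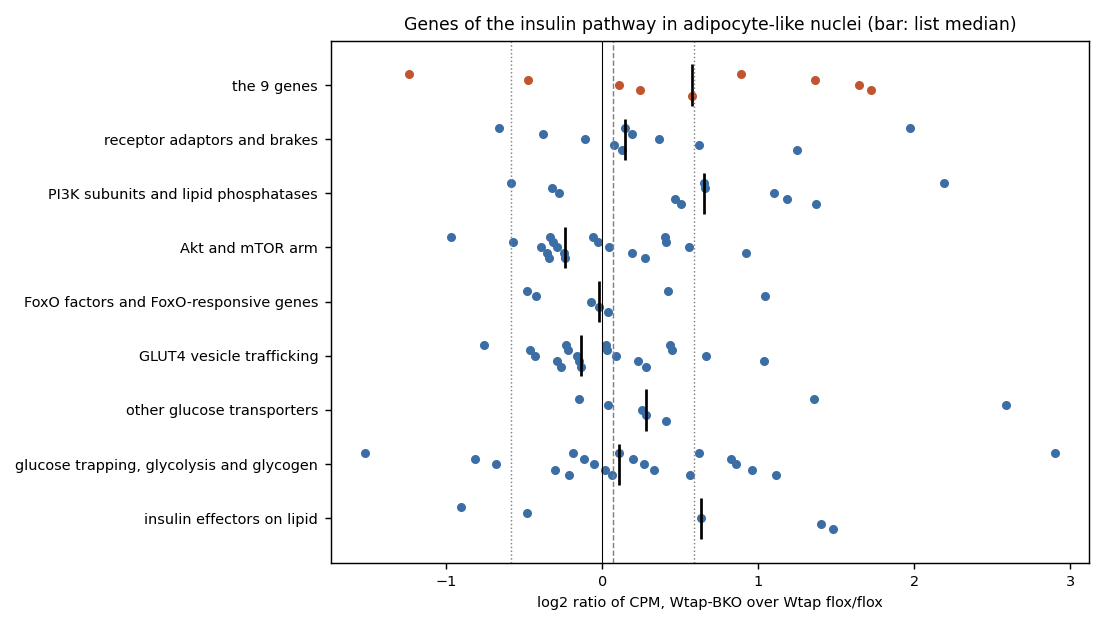
Log2 ratio of CPM in adipocyte-like nuclei (x axis, values above 0 are higher in the library labelled *Wtap*-BKO), for each gene with at least 20 UMIs in the 9 genes (orange) and 8 lists of other pathway genes (blue), with black bars at the list medians, dotted lines at 1.5-fold and a dashed line at the median of all genes. The median is 0.65 for PI3K subunits and lipid phosphatases, -0.24 for the Akt and mTOR arm and 0.07 for all genes.

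The pattern of each gene over the 12 points given by 6 classes and both libraries was compared with that of 7085 genes, as Pearson's r of log2(CPM + 10). The points share their libraries, their depth and the adipocyte RNA, so r is a description. *Irs2* was most like *Ifrd1* (0.948), *Irs1* (0.879) and *Dusp10* (0.861), and was the only one of the 9 with another of the 9 among its nearest 3. *Irs1* was most like *Fah* (0.945), *Bahcc1* (0.922) and *Bcl9l* (0.915), and *Pik3r1* like *Akap8l* (0.923), *Snx12* (0.918) and *Banp* (0.881). *Foxo1* was most like *Brap* (0.965), *Slc4a4* (0.959) and *Ubqln4* (0.954). *Adcy9* (0.935) and *Xpnpep3* (0.920) were among the 3 genes most like *Insr*.

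*Akt2* was most like *Miga2* (0.978), the lipid droplet gene *Plin1* (0.972) and *Ankef1* (0.970), and *Hk2* like *Gm3289* (0.981), *Flcn* (0.972) and *Gm16168* (0.970). *Slc2a4* was most like *Tsc2* (0.929), *Acbd4* (0.898) and *Med12* (0.894). *Slc2a1* was most like *Snx1* (0.939), *Nfkb2* (0.925) and *Mcm9* (0.918), with few UMIs behind each of its points.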

How the data were processed

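Raw UMI counts per gene and nucleus were taken as the authors deposited them. The 2 libraries had been made with droplet barcoding of nuclei, and per the file headers the counts came from Cell Ranger 5.0.0; the submitters' processing notes name mm10, and the treatment of intronic reads was not given in the sources used here. Every nucleus had at least 500 UMIs. Clustering followed the steps named in the study's methods, in Seurat 5.3.0 under R 4.3.3 (2000 variable features without the 9 genes, the other pathway genes and *Wtap*, canonical correlation integration, 20 PCs, resolution 0.5). The study used an earlier version of Seurat. Its methods name both 20 and 8 PCs for clustering, and 8 PCs were run as an alternative. A cluster was named from a class's markers if at least 3 markers had 10 or more UMIs and 2 times the CPM of other nuclei and at least 50% of its nuclei had a UMI of the list. Any other cluster was called adipocyte-like when 50% or more of the 12 markers of adipocytes reached 1.5 times the CPM of the named clusters. These thresholds were set after the data were seen. A cluster led by mitochondrial genes stayed unnamed (423 and 357 nuclei), and 2 nuclei with at least 20 skeletal muscle marker UMIs were set apart. Scrublet (scanpy 1.11.5) called 3 and 0 doublets, too few to be used, so none were removed, and an alternative removed the 721 and 616 nuclei with the highest scores. The 9 genes, the marker lists and the pathway lists were chosen with earlier results of these data known.

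UMIs were summed per library and class. Intervals are exact Poisson (CPM), exact conditional (ratios) and exact Clopper-Pearson (shares), at 95%, computed with scipy 1.17.1, and a count of 0 was bounded at 3 UMIs per library and class. The scripts were tested on simulated data. Calls are ratios of 1.5-fold or more among genes whose UMIs in the libraries summed to at least 20. Besides the 9 genes, the 3 highest and 3 lowest ratios of each list are named, and for each of the 9 genes the 3 genes with the most similar pattern (CPM of at least 50 in 1 point, without mitochondrial genes); 2 genes that these rules name are not reported here. The RefSeq positions matched all 9 symbols.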

Additional observations from a re-analysis of the deposited data

Results flagged for a closer look

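*Hk2* had a log2 ratio of 0.11 in adipocyte-like nuclei, with an interval above 0, and ratios with intervals below 0 in 2 other classes. In endothelial-like nuclei it was -0.38, which is -0.49 relative to adipocyte-like nuclei, and in T cell-like nuclei it was -1.20, which is -1.31 relative to adipocyte-like nuclei. The difference was not tested, since each class had 1 library per genotype. The endothelial-like value was 0.00 (-0.32 to 0.32) with at least 1000 UMIs per nucleus, and within its clusters the intervals include 0, at -0.22 (-0.83 to 0.37) in cluster 4 and -0.23 (-0.56 to 0.10) in cluster 9, so its direction does not hold under each setting. Its other alternatives reached down to -1.21. The T cell-like value stayed between -2.04 and -1.12 under 8 alternatives. The summed adipocyte markers were lower in the library labelled *Wtap*-BKO in both classes, at 7022 and 6031 CPM in endothelial-like and 8264 and 5313 CPM in T cell-like nuclei, and their part in the *Hk2* values was not tested.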

How the results depend on the processing

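No paired analysis was possible because each genotype had 1 library. For the 9 ratios in adipocyte-like nuclei, 81 values were computed under the alternatives; 63 stayed within the counting interval, 18 left it, and none turned direction. Leaving mitochondrial genes out of the denominator moved every ratio up by 0.11 and gave -0.36 for *Insr*, 1.76 for *Irs1*, 1.48 for *Irs2*, 1.0 for *Pik3r1*, 0.35 for *Akt2*, -1.13 for *Foxo1*, 0.69 for *Slc2a4* and 0.22 for *Hk2*. With only nuclei of up to 5% mitochondrial UMIs, the values were -0.21, 2.06, 1.55, 1.15, 0.34, -1.05, 0.40 and 0.20. *Hk2* was at 0.16 with at least 1000 UMIs per nucleus. Without clusters 8 and 11, an alternative chosen after the data were seen, *Insr* was at -0.59 and *Irs1* at 1.48. Of the other pathway genes, 14 were higher and 1 lower at 2-fold, 3 were lower with up to 5% mitochondrial UMIs, and 5 were lower (27 higher) without mitochondrial genes in the denominator. In endothelial-like nuclei, *Irs1* and *Irs2* turned to -0.10 and -0.58 with up to 5% mitochondrial UMIs, and *Hk2* was at 0.00 with at least 1000 UMIs. With classes set by a marker gate, the ratio of class over adipocyte-like nuclei turned to 0.10 for *Hk2* in T cell-like nuclei (*Wtap* flox/flox), and to 0.20 for *Irs1* and 0.14 for *Pik3r1* in pericyte-like nuclei (*Wtap*-BKO). Of 609 such ratios over adipocyte-like nuclei, 489 stayed within the counting interval, 117 left it and these 3 turned from an interval that excluded 0. The cause of these moves was not tested. Of 333 ratios in the other classes, 287 stayed within the counting interval of the reported value. In all, 28 had the opposite sign: 25 of these where the reported interval includes 0, and the 3 named above. Among the 333, 28 fell under 1.5-fold and 25 newly passed it. The counts of the 9 genes higher and lower ranged from 0 to 3 and 0 to 4 in endothelial-like, 2 to 4 and 0 to 2 in pericyte-like, 2 to 3 and 0 to 2 in fibroblast-like, 0 to 2 and 1 to 5 in macrophage-like, and 0 to 2 and 3 to 5 in T cell-like nuclei. For the 9 genes and the pathway lists alike, the share of all genes past the fold is given only for the reported setting. The ranges and counts under alternatives thus have no background beside them. Median-of-ratios scaling moved every ratio by -0.49 in endothelial-like and -0.19 in pericyte-like nuclei, and by at most 0.08 in either direction elsewhere. Depth limits *Slc2a1* in every class, and all ratios in T cell-like nuclei, where 1 library had 120 nuclei.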
